A study of Mus musculus with 12 samples.

Results

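The miR-290 to miR-295 cluster is a run of neighbouring mouse microRNA genes, and 11 of the 595 mouse probes on these arrays were named for its mature strands. Members were taken by name: miR-290-5p, miR-290-3p, miR-291a-5p, miR-291a-3p, miR-291b-5p, miR-291b-3p, miR-292-5p, miR-292-3p, miR-293, miR-294 and miR-295, without the probes of the strands marked with a star. Each member had 4 spots per array, which were averaged. The cluster was selected on the liver signal and ratio of miR-290-5p, which read high, so the liver levels are given as a description, with no test, while the difference between exposed and control livers was not used to choose it.

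Liver RNA came from male B6C3F1 mice, a hybrid laboratory strain, given as 27 to 30 days old in the labels and called adult in the design text. BaP livers (6 arrays) came from mice given benzo[a]pyrene, a polycyclic aromatic hydrocarbon of tar and smoke, at 150 mg/kg daily for 3 days. Vehicle livers (6 arrays) came from mice given corn oil for as long, and all 12 livers were taken 4 h after the last dose. On each array a Hy5-labelled RNA of 1 liver was hybridised together with the same Hy3-labelled reference, total RNA pooled from 10 mouse tissues that the labels do not name. Dyes were never exchanged, so every log2 ratio of liver over reference also holds its probe's dye bias. Both groups carried the same strain, sex and reference, and each array is 1 liver sample of a median lobe.

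The cluster is best known from mouse embryonic stem cells, in which its transcript gives a large part of all microRNAs, and it is shut off as cells differentiate. Several of its 3p strands carry the seed, the bases that pair with targets, of the microRNAs that speed the embryonic cell cycle, and the miR-302 cluster shares it. The remaining strands have other seeds. Primordial germ cells and placenta are other known sites of it, while liver is not one of its usual tissues.

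RefSeq (GRCm38.p6) places 7 hairpins of the cluster on the plus strand of chromosome 7, at chr7:3218626-3220841, within 2216 bases. The order is Mir290a, Mir291a, Mir292, Mir291b, Mir293, Mir294 and Mir295, and 2 further hairpins, Mir290b and Mir292b, lie on the minus strand over Mir290a and Mir292. The long non-coding RNA gene D7Ertd143e (chr7:3218784-3221015) spans 6 of the plus-strand hairpins, all but Mir290a. The protein-coding gene Nlrp12, a receptor of innate immunity, overlaps Mir290a and spans the same 6 hairpins in its wider interval (chr7:3218643-3249771). Mature sequences were found for 10 of the 11 members under their current names, in which miR-290 is miR-290a and miR-292 is miR-292a.

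The 5p strands come first, since miR-290-5p is the member that read high and its nearest sequences within the cluster show what else could be compared. Capitals mark the seed, bases 2 to 8 from the 5′ end. The star strands of miR-293 and miR-294 are no members and are shown for the sequence they share with miR-290-5p. The star strand of miR-295, also no member, is described below but not shown.
miR-290-5p: aCUCAAACuaugggggcacuuu
miR-292-5p: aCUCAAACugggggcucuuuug
miR-293*: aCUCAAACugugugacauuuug
miR-294*: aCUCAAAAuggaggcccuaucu
miR-291a-5p: cAUCAAAGuggaggcccucucu
miR-291b-5p: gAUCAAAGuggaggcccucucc

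The seed CUCAAAC of miR-290-5p stands in miR-292-5p and in miR-293* too, and each of these shares its first 9 bases with miR-290-5p. Both miR-290-5p and miR-292-5p hold a run of 5 G behind the seed, and 5 single-base substitutions, insertions or deletions turn one into the other. The same number, 5, separates miR-290-5p from miR-295*, which is not shown. miR-295* shares its first 7 bases with miR-290-5p, has the same base at 15 of 22 positions and holds a run of 4 G. The 3p strands below include the partner of miR-290-5p from the same hairpin and the strands of the embryonic cell cycle seed.
miR-290-3p: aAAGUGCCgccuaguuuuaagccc
miR-291a-3p: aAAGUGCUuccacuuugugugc
miR-294: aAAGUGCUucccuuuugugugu
miR-295: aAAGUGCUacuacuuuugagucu

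The seed AAGUGCU is shared by 3 members, miR-291a-3p, miR-294 and miR-295. From the 5′ end, miR-291a-3p and miR-294 have the same base at 19 of 22 positions. The sequences of the array's own probes were not used here, so how far a probe also binds a related strand was not tested.

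Signals were dim for the cluster as a whole, and the number of members above background differed between the channels. A probe was called above background when most of its 4 spots exceeded a threshold set by the array's 28 negative control spots. In liver, 1 member (miR-290-5p) was above background on all 12 arrays, where 25.9% of the 595 mouse probes were. A further 6 members were above background in liver on no array, against 40.7% of mouse probes. In the reference no member was above background on all 12 arrays (38.3% of mouse probes were), 2 were on at least 11 (43.5%), and 8 were on none (36.3%). The liver threshold ran between 1.92 and 28.8 intensity units, lowest on BaP 1 and vehicle 1, and these arrays had 5 members above background where the other 10 had 1 or 2. The reference threshold ran between 33.3 and 89.6 units, highest on BaP 2, the only array with no member above background in the reference.

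**Figure D1:**
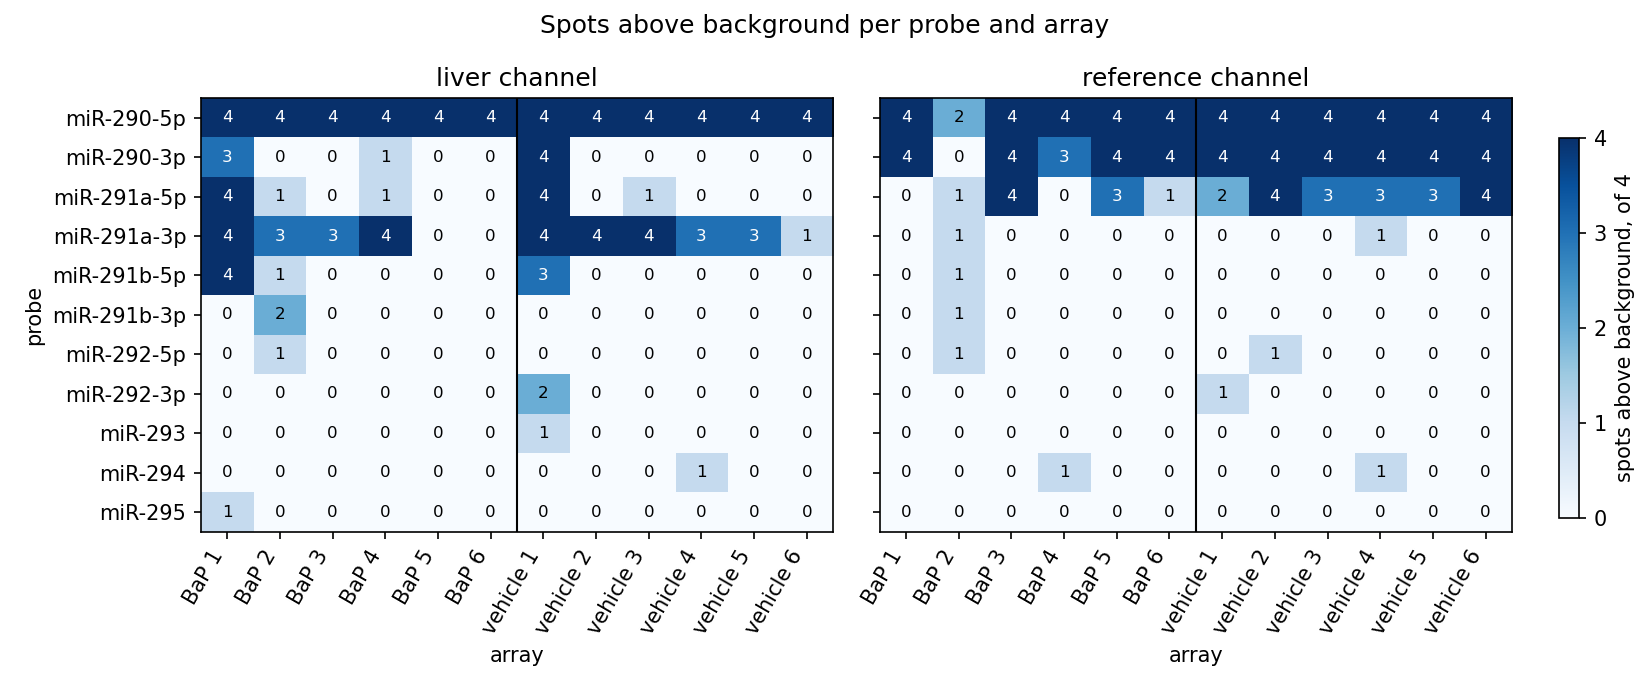
Number of spots above background, of 4, for each of the 11 probes (rows) on each array (columns, BaP left of the line and vehicle right of it), in the liver channel (left) and the reference channel (right). miR-290-5p has 4 of 4 spots above background in liver on all 12 arrays, while miR-290-3p is above background mainly in the reference.

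miR-290-5p, the 5p strand of the cluster's first hairpin, was the 1 member clearly brighter in liver than in the reference. Its log2 ratio of liver over reference had a minimum of 1.69, a median of 2.0 and a maximum of 2.37 on BaP arrays, and 1.85, 2.10 and 2.36 on vehicle arrays. The means were 2.0 ± 0.27 in BaP livers and 2.12 ± 0.19 in vehicle livers (SD, n = 6 each), a 4.0-fold and a 4.34-fold excess over the reference. All 12 arrays lay far above 0, and the ranges of the groups overlapped, with BaP 2 (1.69) and BaP 3 (1.71) below the lowest vehicle array.

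The net liver signal of miR-290-5p, its brightness above local background, ran from 126 units over a median of 187 to 369 on BaP arrays. On vehicle arrays it ran from 138 over a median of 268 to 354. As a multiple of the array's own threshold, the lowest value was 7.01 in BaP livers (on BaP 2) and 8.53 in vehicle livers (on vehicle 3). The net reference signal of the same probe was 70.2 to 88.6 units on BaP arrays and 76.1 to 95.7 units on vehicle arrays. These were 0.988 to 2.24 times the threshold on BaP arrays and 1.73 to 2.66 times on vehicle arrays. The reference thus stood close to its limit, and on BaP 2 only 2 of the 4 spots passed it. The median SD of the log2 ratios over the 4 spots of the probe was 0.0999 on BaP and 0.0656 on vehicle arrays. BaP 2 stood apart with an SD of 0.745, and 1 of its 4 spots was flagged by the scanner software and left out of the mean. In whole liver RNA, fewer cells of a type and less RNA per cell cannot be told apart.

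Among the 212 mouse microRNAs that passed the liver filter (above background on at least 3 arrays of a group), miR-290-5p held place 9 by mean ratio in BaP livers and place 9 in vehicle livers. It was 1 of 21 (9.91%) that were at least 2-fold above the reference on average and above it on all BaP arrays, and 1 of 23 (10.8%) on vehicle arrays. By mean ratio in vehicle livers the next above it were miR-487b (2.36 ± 0.16), miR-184 (2.38 ± 0.34), miR-101b (2.45 ± 0.42) and miR-194 (2.63 ± 0.20). The next below were miR-489 (2.04 ± 0.35), miR-207 (1.92 ± 0.18), miR-878-3p (1.91 ± 0.50) and miR-675-5p (1.88 ± 0.12; SD, n = 6 each). Only miR-194, known from hepatocytes, did not overlap miR-290-5p in its 6 vehicle values (2.42 to 3.01 against 1.85 to 2.36). The vehicle ranges of the other 7 neighbours overlapped that of miR-290-5p. Whether their order held within each array was not tested. miR-122, the main microRNA of hepatocytes, stood higher at 3.85 ± 0.16 in BaP and 3.72 ± 0.15 in vehicle livers, and all 4 hepatocyte microRNAs examined passed the background threshold on every liver array.

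The size of the miR-290-5p ratio depended on the scaling, while its sign did not. Without normalization within arrays the mean was 1.08 in BaP and 1.20 in vehicle livers, where the median of the 212 microRNAs was -0.92 and -0.91. From the software's own processed signals it was 2.85 in BaP and 2.83 in vehicle livers. Over 10 settings of background correction, normalization and spot averaging its place among the 212 ran from 3 to 9 in BaP livers and from 3 to 10 in vehicle livers.

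**Figure D2:**
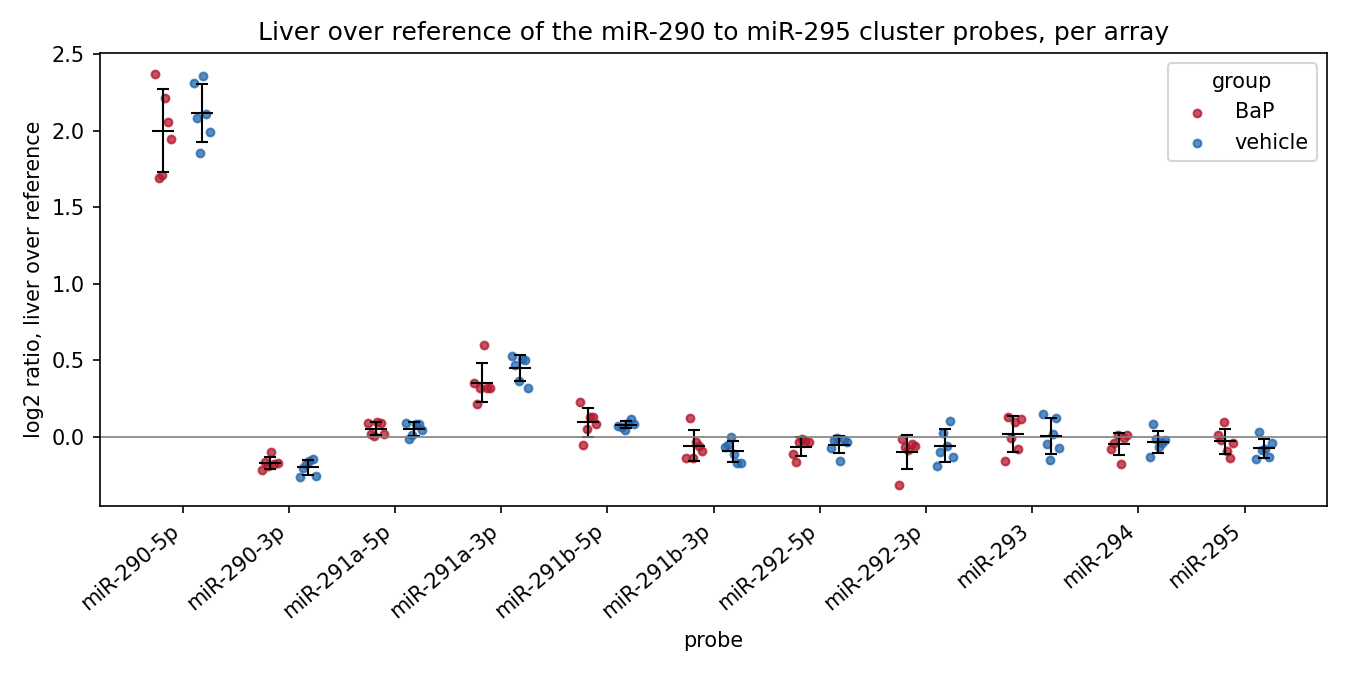
Log2 ratio of liver over reference for the 11 probes, 1 point per array, with BaP (red) left of vehicle (blue) and black bars for the mean and SD of 6 arrays. miR-290-5p lies between 1.69 and 2.37 on all arrays, miR-291a-3p between 0.22 and 0.60, and the other 9 between -0.32 and 0.23.

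miR-290-3p, cut from the same hairpin as miR-290-5p, was seen mainly in the reference. It was above background in the reference on 11 of 12 arrays, all but BaP 2, and in liver on 2, BaP 1 and vehicle 1, the arrays with the lowest liver thresholds. Its net reference signal was 60.2 to 75.8 units on BaP arrays and 57.6 to 84.6 units on vehicle arrays, and its net liver signal 6.21 to 20.8 and 9.38 to 21.7 units. The log2 ratio was -0.17 ± 0.040 in BaP and -0.20 ± 0.049 in vehicle livers (SD, n = 6 each), below 0 on all 12 arrays. With liver not above background on 10 of these arrays the size of the ratio is not measured, and over the alternative settings the mean ran between -0.78 and -0.042 in BaP and between -0.85 and -0.056 in vehicle livers.

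miR-291a-3p, a strand with the embryonic cell cycle seed, was the only other member to pass the liver filter. It was above background in liver on 4 BaP and 5 vehicle arrays, and in the reference on none. Its net liver signal had a minimum of 16.2, a median of 17.0 and a maximum of 35.3 units on BaP arrays, and 16.4, 24.8 and 27.8 units on vehicle arrays. The log2 ratio was 0.35 ± 0.13 in BaP and 0.45 ± 0.085 in vehicle livers (SD, n = 6 each). Since the reference was not above background, only a bound can be given, and with loess within arrays liver exceeded the reference at least 1.11-fold in BaP and at least 1.22-fold in vehicle (log2 bounds of 0.15 and 0.29). For such bounds the reference was set, per array, to the higher of its own signal and the lowest signal called above background. The liver means behind them took in all 6 arrays of a group, also those with liver not above background. On those arrays neither channel gives a level, so the bounds are approximate. The bounds rest on the loess: without normalization within arrays the mean log2 ratios themselves were 0.030 in BaP and 0.19 in vehicle, each below the bound of its group. Before any scaling the median net signals over 12 arrays were 20.6 units in liver and 24.3 units in the reference. The 3 arrays on which miR-291a-3p was not above background in liver, BaP 5, BaP 6 and vehicle 6, were those of 1 scan day.

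miR-291a-5p, the partner of miR-291a-3p, was above background in the reference on 2 BaP and 5 vehicle arrays, and in liver on 1 array of each group. With liver mostly not above background, its log2 ratio of 0.052 ± 0.044 in BaP and 0.050 ± 0.043 in vehicle livers (SD, n = 6 each) gives no size. Its net reference signal was 26.0 to 68.9 units on BaP and 35.6 to 53.2 units on vehicle arrays, around the threshold. miR-291b-5p, which has the same base at 20 of 22 positions, was above background in the reference on no array and in liver on BaP 1 and vehicle 1 only.

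The other 6 members, miR-291b-3p, miR-292-5p, miR-292-3p, miR-293, miR-294 and miR-295, were not above background on any array in either channel. They include 2 of the 3 strands with the seed AAGUGCU. They also include miR-292-5p, which shares seed and G run with miR-290-5p. The net liver signal of miR-292-5p had a median of 8.70 units in BaP and 8.72 units in vehicle livers, and its log2 ratio was -0.066 ± 0.060 in BaP and -0.053 ± 0.055 in vehicle livers (SD, n = 6 each). For these 6 members a ratio near 0 is a ratio of 2 signals that were both not above background, and gives no level. On BaP 1 and vehicle 1 the local background exceeded the spot for several of them, down to a net liver signal of -18.2 units for miR-293 on BaP 1.

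Probes outside the membership rule were read in the same way. Of the 3 star strands, miR-294* was above background in liver on all 12 arrays and in the reference on 11, with a log2 ratio of 0.24 ± 0.19 in BaP and 0.25 ± 0.14 in vehicle livers (SD, n = 6 each). miR-295* was above background in liver on 1 array and miR-293*, with the same seed as miR-290-5p, on none. None of the 5 probes for the human counterparts, miR-371-5p, miR-371-3p, miR-372, miR-373 and miR-373*, passed the liver filter. miR-371-5p and miR-373 were each above background on 1 liver array and on no reference array. The other 3 were above background on no liver array, and miR-373* on 1 reference array.

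Probes of other cell types gave the following. Of the 5 probes of the miR-302 and miR-367 cluster, the other stem cell cluster, none passed the threshold on every liver array, 4 passed it on no liver array, and 4 on no reference array. Of 8 microRNAs of male germ cells, miR-34b-5p, miR-34c, miR-449a, miR-449b, miR-741, miR-743a, miR-871 and miR-883a-3p, 7 were above background in liver on no array and 5 in the reference on all 12. Of 5 blood cell microRNAs, 4 passed the threshold on every liver array, all but miR-150. Their mean ratios differed widely. miR-451 of red blood cells averaged -2.27 in BaP and -2.22 in vehicle livers, and miR-144 averaged -0.26 and -0.074. miR-142-3p averaged -3.38 in both groups, and miR-223 averaged -1.30 in BaP and -1.22 in vehicle livers. miR-150 averaged -0.19 in BaP and 0.090 in vehicle livers. The part of these cell types in the signal of miR-290-5p was not tested. Of 6 microRNAs whose seed is a shifted form of AAGUGCU, miR-17, miR-20a, miR-20b, miR-93, miR-106a and miR-106b, 5 passed the threshold on every liver array and all 6 on every reference array. The mean ratios of these 5, all but miR-20b, lay between -1.06 and -0.76 in BaP livers and between -1.08 and -0.73 in vehicle livers, and 0 of the 5 passed the adjusted p for BaP against vehicle in limma.

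The comparison of BaP with vehicle livers asks whether exposure moved the cluster. No member passed the test. In limma 0 of the 212 microRNAs tested (0%) had an adjusted p under 0.05, and 2 (0.943%) had an unadjusted p under 0.05, neither of them a member. Of the members, only miR-290-5p and miR-291a-3p entered this test. BaP and vehicle arrays overlapped for all 11 members, and for all 212 microRNAs tested (0% without overlap).

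miR-290-5p differed by -0.12 between BaP and vehicle livers on the log2 scale, with a 95% interval of -0.39 to 0.15 (adjusted p = 0.992 in limma). The interval runs from 0.764-fold to 1.11-fold, and 2 of the 6 BaP arrays lay above the vehicle mean. An exact two-sided permutation test over all 924 regroupings of the 12 arrays gave p = 0.387, where the smallest p it can give is 0.00216. Because 50 units were added to each signal, a true doubling of the median liver signal of this probe would show as 1.80-fold. With flagged spots included the difference was -0.18, more than 1.5 times as large.

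miR-291a-3p differed by -0.094 (95% interval -0.24 to 0.051, adjusted p = 0.992 in limma, exact permutation p = 0.154). Only 1 of 6 BaP arrays lay above the vehicle mean. A doubling of this dimmer signal would show as 1.29-fold, so the interval is narrower on the scale of signal plus 50 than it is in RNA. Its direction turned with 2 scalings, loess fitted on spots above background (0.070, adjusted p = 0.913 in limma) and the liver channel alone (0.14, adjusted p = 0.777 in limma). The direction for miR-290-5p turned with the processed signals (0.022, adjusted p = 0.993 in limma).

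Over all 11 members 6 differences were above 0 and 5 below, between -0.12 and 0.046, with a median of 0.0021. Over the 595 mouse probes 364 were above 0 and 231 below, with a median of 0.014. The 9 members below the liver filter were not tested in limma. Over all 11 members the smallest exact permutation p was 0.154, that of miR-291a-3p.

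**Figure D3:**
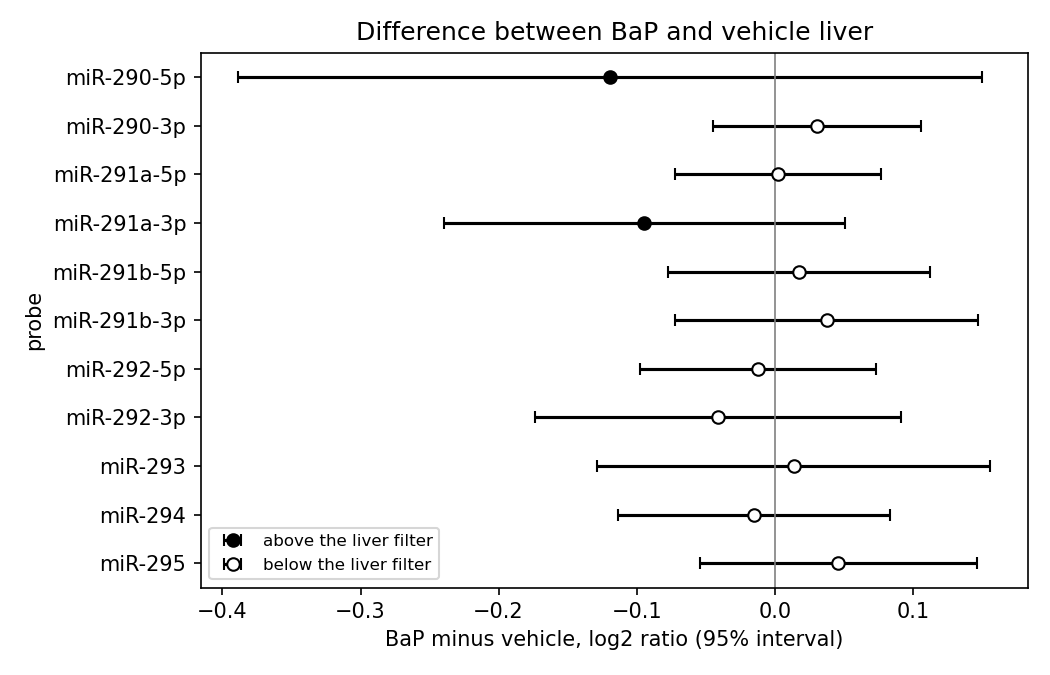
Difference in log2 ratio, BaP minus vehicle, of the 11 probes with 95% intervals from limma, filled for the 2 probes above the liver filter and open for the 9 below it. All intervals include 0, and the points lie between -0.12 and 0.046.

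The reference RNA was the same on all arrays, so its channel shows how far a probe moves between the groups without any exposure. Scaled to each array's 75th percentile, the reference signal of miR-290-5p differed by 0.032 between BaP and vehicle arrays (95% interval -0.17 to 0.24). That of miR-290-3p differed by 0.063 (-0.10 to 0.23) and that of miR-291a-5p by 0.12 (-0.17 to 0.41). None of 341 probes tested passed (0%, limma), 2 of them at an unadjusted p under 0.05. These signs turned with the normalization: under quantile normalization the 3 differences were -0.074, -0.062 and -0.045.

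The values of miR-290-5p varied with the day of scanning. There were 4 scan days by the times in the files, and both groups were scanned on each. The mean ratio of miR-290-5p was 2.34 on day 1, 2.0 on day 2, 1.83 on day 3 and 2.23 on day 4. The net liver signal was 323 to 335 units on day 1 and 339 to 369 on day 4, but 172 to 201 on day 2 and 126 to 200 on day 3, so days 1 and 4 did not overlap with days 2 and 3. The net reference signal of the probe overlapped between all days. Over the 212 microRNAs the median liver signal per array also varied by day, with 85.3 to 116 units on day 1, 58.7 to 69.4 on day 2, 53.7 to 96.9 on day 3 and 74.8 to 126 on day 4.

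Scan days accounted for 77.0% of the sum of squares of the miR-290-5p ratios and 62.4% of that of miR-291a-3p, where the median of the 212 microRNAs was 56.2% and 28 had at least the share of miR-290-5p. Differences between BaP and vehicle within days 1 to 4 were 0.062, 0.0084, -0.27 and -0.021 for miR-290-5p. For miR-291a-3p they were -0.17, -0.0024, -0.15 and 0.094. Blocking on scan day gave a difference of -0.086 for miR-290-5p (95% interval -0.25 to 0.074) and of -0.062 for miR-291a-3p (-0.18 to 0.053), both with an adjusted p of 0.828 in limma. The days differ in direction for both members, and no day holds more than 2 arrays of a group.

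**Figure D4:**
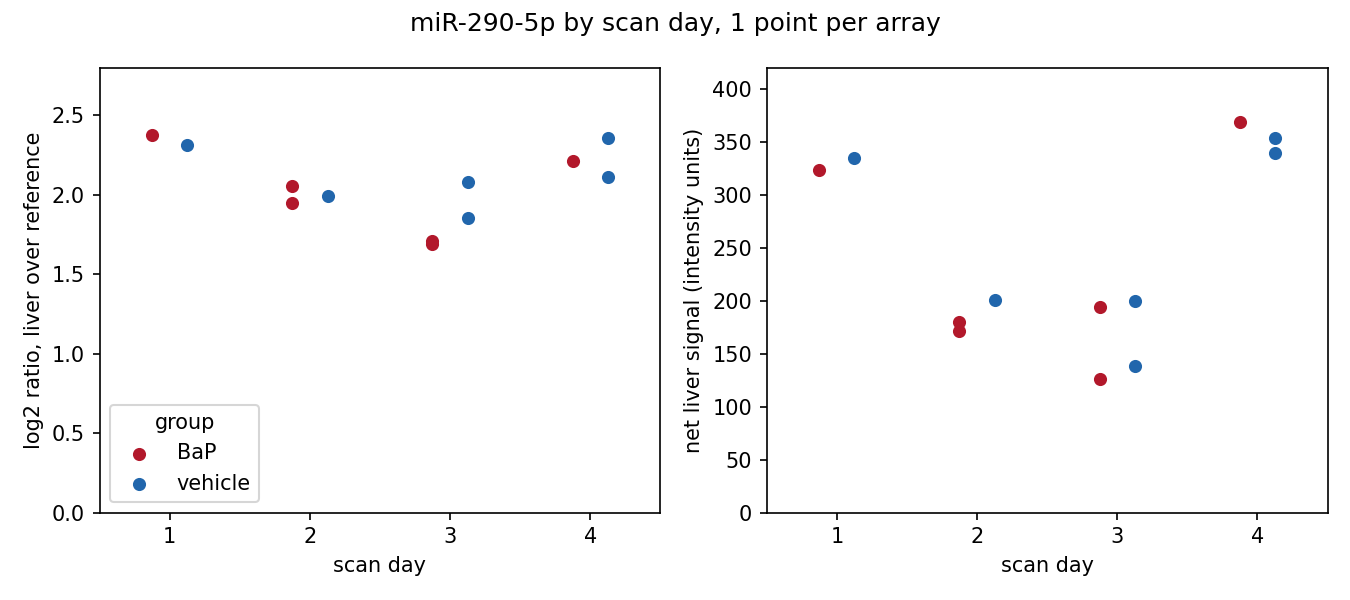
miR-290-5p on each of the 12 arrays by scan day, as log2 ratio of liver over reference (left) and as net liver signal (right), with BaP (red) left of vehicle (blue). Days 1 and 4 lie at 323 units of net liver signal or more and days 2 and 3 at 201 or less, in both groups.

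Of the 210 microRNAs tested that are no members, the 5 whose ratios over the 12 arrays were most like those of miR-290-5p were miR-872* (Pearson r = 0.956), miR-294* (0.904), miR-34b-3p (0.870), miR-667 (0.862) and miR-351 (0.862), where the median of the 210 was 0.050. These values describe 12 arrays that share scan days, and carry no test. After the mean of each scan day was taken off, the same correlations were 0.899, 0.575, 0.793, 0.766 and 0.599. miR-872*, the closest, was itself above the reference, at 1.0 in BaP and 1.13 in vehicle livers on the log2 scale, while miR-34b-3p averaged -0.047 in BaP and -0.024 in vehicle livers. miR-294* is the 1 microRNA of the same cluster among the 5.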

How the data were processed

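Small RNAs of 12 mouse livers were measured on two-colour Exiqon arrays. Per the submitters' processing notes, the authors used Agilent Feature Extraction 9.5.3.1 to read the spot intensities. The deposited mean and local background intensities are linear and not normalized. The authors' deposited value table, unstated in scale, matched log2 ratios of reference over liver, the opposite direction (r 0.938 to 0.969 with the sign turned, column medians -0.092 to -0.00034). It holds 248 of 2001 rows and 6 members, not miR-290-5p.

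Normexp (offset 50) served as background correction, followed by loess of the ratios within arrays (limma 3.58.1, R 4.3.3), control and flagged spots at weight 0. The background threshold was the median of 28 negative control spots plus 2.6 scaled median absolute deviations. The scanner's own flag for spots well above background was set for every spot and was not used. The 212 mouse probes that exceeded it on at least 3 liver arrays of either group were fitted with lmFit and eBayes, with Benjamini-Hochberg adjustment, after tests on simulated data. Background correction, normalization, filters, thresholds and each array were varied. Of 528 member spots 2 were flagged and 0 saturated. The number of arrays limits the precision. Replicate numbers only name arrays. Since no label ties an array to a named animal, the p-values reflect only how these samples spread, which may be partly technical. Members and lists were chosen with earlier results of these data known. All members are named, with star strands, human counterparts, cell type lists, 4 neighbours on each side in the order of ratios and the 5 most alike microRNAs. Only 202 of 595 mouse probes (33.9%) matched 1 mature sequence, so a check of G runs over all probes was void. Livers taken at 24 h were not analysed here.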

Additional observations from a re-analysis of the deposited data

Results flagged for a closer look

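Values were looked at in 66 sets of 6 arrays (11 members, 2 groups, and the ratio, the net liver signal and the net reference signal), and in 13 sets the highest or lowest array stood apart, its gap to the nearest of the other 5 too large for the whole range by Dixon's 95% critical value, where chance alone gives about 1 set in 20. Of these, 5 were net reference signals on BaP 2, the array with the highest reference threshold: 70.5 units for miR-291a-3p, 55.6 for miR-291b-3p, 65.0 for miR-291b-5p, 73.5 for miR-292-5p and 41.8 for miR-295. None of these 5 was above background there.

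On BaP 1 and vehicle 1, the arrays of scan day 1 with the lowest liver thresholds, 5 net liver signals lay below those of the rest of their group. On BaP 1 they were -16.6 units for miR-292-3p, -13.0 for miR-292-5p and -18.2 for miR-293, and on vehicle 1 they were -6.60 for miR-292-5p and -6.14 for miR-294. The log2 ratio of miR-292-3p on BaP 1 was -0.32, and its net reference signal on vehicle 1 was 36.4 units. All concern members not above background in either channel.

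The log2 ratio of miR-291a-3p on BaP 4 was 0.60, where the other 5 BaP arrays lay between 0.22 and 0.35. Both vehicle arrays of that scan day were at 0.50 and 0.51.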

How the results depend on the processing

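No count of changed microRNAs depended on the processing: 0 passed under all 27 alternatives, with a smallest adjusted p of 0.257 in limma (normexp offset 16). Leaving out 1 array moved the difference of miR-290-5p between -0.19 (without BaP 1) and -0.058 (without BaP 2), and that of miR-291a-3p between -0.14 (without BaP 4) and -0.067 (without BaP 2). The direction turned for miR-290-5p with processed signals (0.022), and for miR-291a-3p with loess limited to spots above background (0.070) and when liver signals alone were scaled at their 75th percentile (0.14), which moved the median of the 212 microRNAs to 0.10. Mean ratios of miR-290-5p in BaP and vehicle were 2.74 and 2.77 with plain background subtraction, 2.44 and 2.54 with offset 16, 1.08 and 1.20 without normalization, 1.32 and 1.34 with median centring, and 2.85 and 2.83 with processed signals. Those of miR-291a-3p were 1.40 and 1.56, 0.66 and 0.83, and 0.030 and 0.19 under the first 3 of these and 1.25 and 1.35 with processed signals, and in vehicle 0.34 with median centring and 0.28 with the limited loess. The cause was not tested. With 5 scaled deviations 1 member (main 2) was above background on at least 3 liver arrays of a group. With the highest negative control spot as threshold 0 were on every liver array (main 1). The highest control spot read 34864 units on BaP 3 and 804 on BaP 5, where miR-290-5p read 126 and 172. On BaP 6 the highest control spot read 177 and miR-290-5p 180, with 3 of its 4 spots above that control. Without BaP 2, an alternative chosen after seeing the data, 2 members (main 0) were above background on every reference array. In the reference channel the differences turned to -0.062, -0.074 and -0.045 for miR-290-3p, miR-290-5p and miR-291a-5p with quantile normalization, and to -0.024 and -0.055 for the first pair without scaling, also chosen after seeing the data. For the 9 members below the liver filter, 103 of 423 values moved by more than the spread between arrays. The 423 include settings that changed only the filter, which could not move the values of these members. No paired analysis was possible because replicate numbers follow accession order and pair no arrays. Signals near the threshold limit all members but miR-290-5p in liver.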
